A study of Mus musculus with 8 samples.

Results

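The receptors for serotonin, dopamine, noradrenaline, histamine and acetylcholine were followed in cultured mouse hippocampal neurons that carried either a Nr4a1 or a GFP lentivirus. The group was drawn gene by gene from these receptor families with no threshold on a measured value, although earlier results of these data were known. It does not hold every receptor of these families: 21 others, Htr1f and Drd4 among them, were left outside and are counted with the pathway lists. It holds 32 genes among the 20144 genes with a symbol on the array: 9 serotonin, 4 dopamine, 6 adrenergic, 4 muscarinic, 6 nicotinic and 3 histamine receptor genes. Probes were assigned to them through the transcript accession that the scanner files give for each spot, and 31 of the 32 genes were matched to 40 probes. Hrh2 had no matched probe and has no value here.

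Dissociated hippocampal neurons from mice were infected after 10 days in culture with a virus encoding either Flag-tagged Nr4a1, an orphan nuclear receptor induced by neuronal activity, or GFP, a fluorescent protein used as the control, and RNA was taken 6 days later. Each of the 8 arrays held the RNA of 1 culture sample in Cy5 and a commercial mouse reference RNA in Cy3, with 4 arrays per group joined in 4 pairs by the labels. The dyes ran the same way on every array. The strain and age of the mice, the promoter of the virus and whether the pairs came from separate cultures were not given in the sources used here, so the p-values rest on a between-array spread that may be technical. All values are log2 ratios of culture over reference after background correction and loess normalisation, and a difference is the Nr4a1-labelled minus the GFP-labelled arrays.

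In Cy5, 60.9% to 69.2% of the spots stood clear of background. The 4 GFP-labelled arrays shared 1 slide, the Nr4a1-labelled replicates 1 to 3 another and replicate 4 was alone on its own. No slide held both groups, so a difference between the groups cannot be told apart from a difference between slides. Replicate 4 of both groups formed the second batch of the labels. The Nr4a1 probe read -2.06, -2.12, -1.90 and -2.49 on the GFP-labelled arrays and -1.32, -2.49, -1.20 and -2.37 on the Nr4a1-labelled arrays, a difference of 0.30 ± 0.15 (SE; limma, adjusted p = 0.193), so the arrays are called here by their labels. That difference was 0.52 and called without replicate 2 (limma, adjusted p = 0.00602), 0.40 and called with median centring, and 0.15 without replicate 1. Whether the Nr4a1 probe reads the viral transcript is not known. All 12 pan-neuronal markers were tested and their mean log2 ratio lay between 4.28 and 4.40 on the GFP-labelled and between 4.20 and 4.40 on the Nr4a1-labelled arrays. Of these 12 markers 2 were higher and 2 lower, with a median difference of -0.13. Astrocyte, oligodendrocyte-lineage and microglial transcripts were also detected, and in such mixed RNA fewer cells of a type and less RNA per cell cannot be told apart. Of 5 serotonergic markers 2 were tested and 0 called, with Tph2, Slc6a4 and Gata3 never above background; of 5 cholinergic markers 3 were tested and 0 called, with Lhx8 never above background. Of 8 dopaminergic or noradrenergic markers 5 were tested, of which 1 was higher and 2 lower.

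Serotonin, dopamine, noradrenaline and histamine reach the hippocampus from brainstem, midbrain and hypothalamic neurons, and acetylcholine mostly from the septum, so the hippocampal cells carry the receptors while most of the transmitter is made elsewhere. Most of these receptors couple to G proteins: the Gq class drives phospholipase C and calcium release, the Gi class lowers cyclic AMP and opens potassium channels, and the Gs class raises cyclic AMP. The nicotinic subunits and Htr3a form cation channels that open when the transmitter binds.

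Of the 31 matched genes, 25 passed the detection rule, under which 4 or more of the 8 arrays must show Cy5 clear of background, and 20 of these did so on all 8. The histamine receptor Hrh1 rose 2.52-fold in the Nr4a1-labelled cultures, the serotonin receptors Htr7 and Htr5b and the adrenergic receptor Adra2a rose by less, and Adra1d, Chrna7, Htr3a, Htr1a and Chrm1 fell. These 9 genes passed an adjusted p of 0.05 (limma with the pair as a block, Benjamini-Hochberg over all 21116 features), 4 higher and 5 lower. Htr5b reached the test only through the Nr4a1-labelled arrays, where it was high. The test was also run only on features detected on all 8 arrays. There 3 of 20 receptor genes were higher and 5 lower, beside 2651 and 2344 of 18794 features. The 9, Htr5b among them, made up 36% of the tested receptor genes, beside 24.4% of all features. Of all features 12.8% were higher and 11.5% lower. The groups of 4 arrays did not overlap for 6 of the 25 genes, Htr5b again included, or 24%, against a background of 24.4%. The median difference of the 25 genes was -0.00018 and their median absolute difference 0.11, beside -0.0035 and 0.11 over all features.

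By transmitter, 2 of 7 tested serotonin receptor genes rose, with Htr5b counted although it entered through the group in which it was high, and 2 fell. Of the dopamine receptor genes 0 of 3 passed the test, 1 of 5 adrenergic genes rose and 1 fell, and 1 of 3 muscarinic genes fell. Among the nicotinic subunits 1 of 5 fell, and of the histamine receptors 1 of 2 rose. By coupling, the Gq class held 1 higher and 2 lower genes of 7, the Gi class 1 higher and 1 lower of 7, the Gs class 1 higher of 4 and the ion channels 2 lower of 6. Htr5b, whose coupling is not settled, was left outside the classes.

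**Figure D1:**
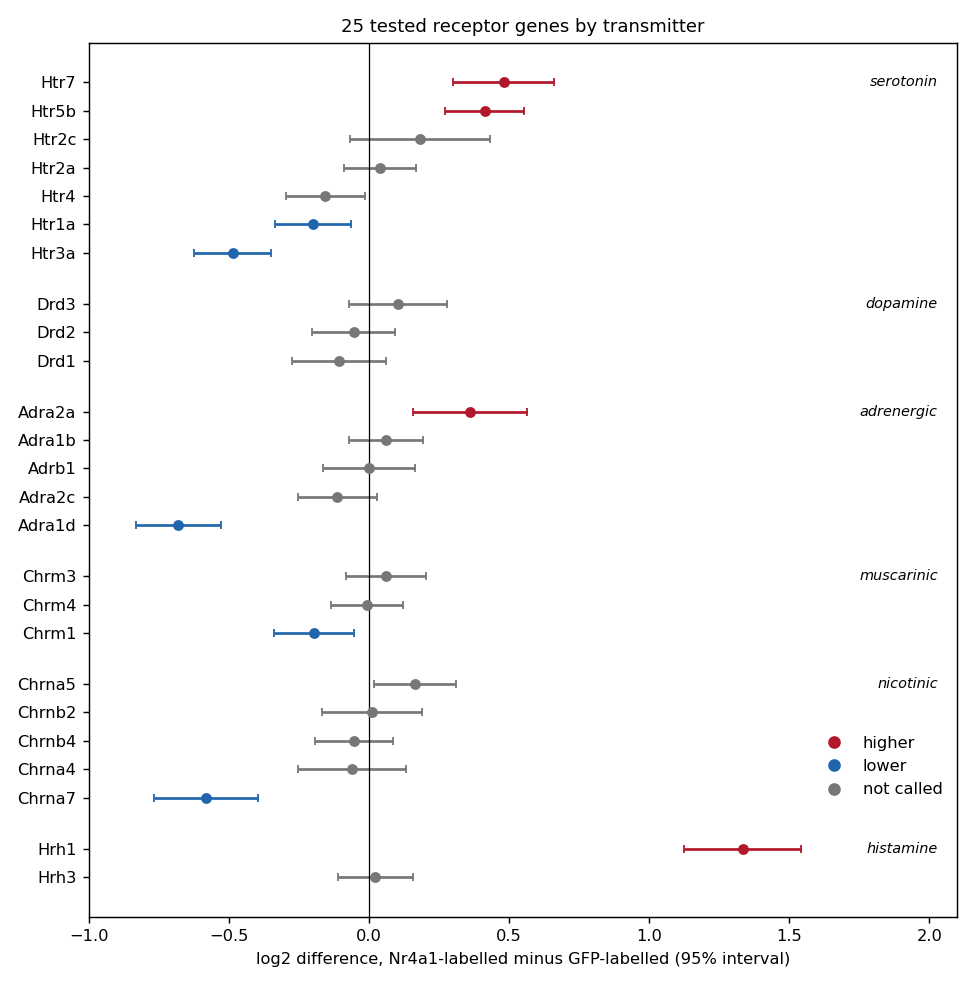
Log2 difference of each of the 25 tested receptor genes (x axis, Nr4a1-labelled minus GFP-labelled, 4 arrays per group) with its 95% interval, grouped by transmitter, red for higher, blue for lower and grey for genes that did not pass the test. Hrh1 lies farthest to the right at 1.33 and Adra1d farthest to the left at -0.68, while all 3 dopamine receptor genes have intervals that cross 0.

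The start regions of the called genes are shown because the receptors moved in opposite directions and their promoters differ in composition. RefSeq's table for GRCm38.p6 gave 33 promoters, each 250 bases before to 50 bases after a start, for 26 of the 32 genes. Among the called genes it held Hrh1 at chr6:114397686-114397985 (plus strand; the first of 4 listed starts), Htr7 at chr19:36057311-36057610 (minus), Adra2a at chr19:54045009-54045308 (plus), Chrna7 at chr7:63212477-63212776 (minus) and Htr1a at chr13:105443443-105443742 (plus). CG dinucleotides are in capitals, and the sequences run 5′ to 3′ on the gene's strand.
Hrh1: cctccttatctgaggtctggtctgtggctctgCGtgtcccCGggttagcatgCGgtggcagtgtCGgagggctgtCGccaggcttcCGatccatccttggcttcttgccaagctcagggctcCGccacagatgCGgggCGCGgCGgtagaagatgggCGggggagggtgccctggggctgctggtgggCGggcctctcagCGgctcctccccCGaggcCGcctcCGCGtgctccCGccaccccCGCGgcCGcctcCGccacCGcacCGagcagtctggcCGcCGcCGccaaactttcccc
Htr7: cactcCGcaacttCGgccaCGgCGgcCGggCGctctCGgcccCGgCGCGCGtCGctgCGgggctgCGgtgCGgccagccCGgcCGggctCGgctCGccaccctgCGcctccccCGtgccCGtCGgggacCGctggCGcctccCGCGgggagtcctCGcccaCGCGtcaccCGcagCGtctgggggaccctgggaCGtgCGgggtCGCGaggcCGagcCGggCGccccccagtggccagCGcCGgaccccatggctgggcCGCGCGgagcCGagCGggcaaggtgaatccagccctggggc
Adra2a: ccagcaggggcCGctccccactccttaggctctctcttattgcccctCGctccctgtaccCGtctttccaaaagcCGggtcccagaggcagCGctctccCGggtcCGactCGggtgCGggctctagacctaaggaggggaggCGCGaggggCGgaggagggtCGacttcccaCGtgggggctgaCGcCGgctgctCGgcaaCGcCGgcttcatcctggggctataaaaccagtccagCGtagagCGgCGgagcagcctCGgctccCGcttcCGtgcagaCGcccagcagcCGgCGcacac
Chrna7: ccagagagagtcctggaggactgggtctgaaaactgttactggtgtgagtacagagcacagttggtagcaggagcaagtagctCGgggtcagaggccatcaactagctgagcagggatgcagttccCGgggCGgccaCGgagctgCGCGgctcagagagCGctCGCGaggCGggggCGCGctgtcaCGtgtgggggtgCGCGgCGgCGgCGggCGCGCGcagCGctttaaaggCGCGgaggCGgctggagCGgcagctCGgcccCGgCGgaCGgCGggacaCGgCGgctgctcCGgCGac
Htr1a: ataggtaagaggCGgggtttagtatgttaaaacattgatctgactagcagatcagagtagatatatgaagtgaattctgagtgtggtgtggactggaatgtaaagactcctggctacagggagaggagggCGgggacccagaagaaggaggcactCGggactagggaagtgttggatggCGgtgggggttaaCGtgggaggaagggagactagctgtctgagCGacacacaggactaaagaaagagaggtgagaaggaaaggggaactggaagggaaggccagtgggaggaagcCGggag

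These windows held 28 CG dinucleotides in Hrh1, 46 in Htr7, 28 in Adra2a, 35 in Chrna7 and 7 in Htr1a, beside a median of 7 over the 32851 promoters of the table and 16 over the 33 receptor promoters. The later starts of Hrh1 held 39, 5 and 4. Many CG dinucleotides were thus found in rising genes and, among falling ones, in Chrna7. The called genes Htr5b, Htr3a, Adra1d and Chrm1 had no promoter in the table. By the start with most CG in each gene, the median was 35 over 5 called genes (7 to 46). It was 23 over 15 uncalled genes (2 to 47). GC content had a median of 61.3% in the receptor promoters and 52.7% in all. The 8 letters AAAGGTCA, the element that NR4A receptors bind as monomers, were searched on both strands and occurred in 1.51% of all promoters and in 0 of the 33 receptor promoters. The palindrome TGACGTCA, the cyclic AMP response element, occurred in 1.79% of all promoters and in 0 of the 33. The searches cover only these letters in these windows.

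Hrh1, on chromosome 6, encodes the Gq-coupled histamine receptor that is the target of sedating antihistamines. Hrh1 read 1.59, 1.57, 1.74 and 1.67 on the GFP-labelled arrays and 3.10, 2.84, 3.32 and 2.65 on the Nr4a1-labelled arrays (probe A_55_P2045007). Every Nr4a1-labelled array lay above every GFP-labelled one, and replicates 3 and 1 were the highest. The difference was 1.33 ± 0.09 (SE; limma, adjusted p = 9.57e-06) and was positive in 4 of 4 pairs, from 0.98 in the pair of the second batch to 1.58. Only 0.35% of all tested features had an absolute difference as large.

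The raw Cy5 signal of this Hrh1 probe was 260, 305, 310.5 and 245 scanner units in the GFP-labelled cultures and 915, 723.5, 1187 and 523.5 in the Nr4a1-labelled ones, whereas the Cy3 signal of the reference stayed between 70.5 and 80 on all 8 arrays. The difference thus lay in the culture channel. The other Hrh1 probes differed by less. A_55_P2034081, detected on all 8 arrays, differed by 0.0022 with overlapping groups, and A_66_P125883, detected on 1 array and so close to background, by 0.22, higher in 4 of 4 pairs with no overlap. With the 2 probes that passed the detection rule averaged, the Hrh1 difference was 0.67 (limma, adjusted p = 2.59e-04). Which transcripts each probe reads was not tested.

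Hrh3, the Gi-coupled autoreceptor that limits histamine release, read between 4.44 and 4.68 on the GFP-labelled and between 4.54 and 4.65 on the Nr4a1-labelled arrays. Its difference of 0.022 had an interval from -0.11 to 0.16.

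**Figure D2:**
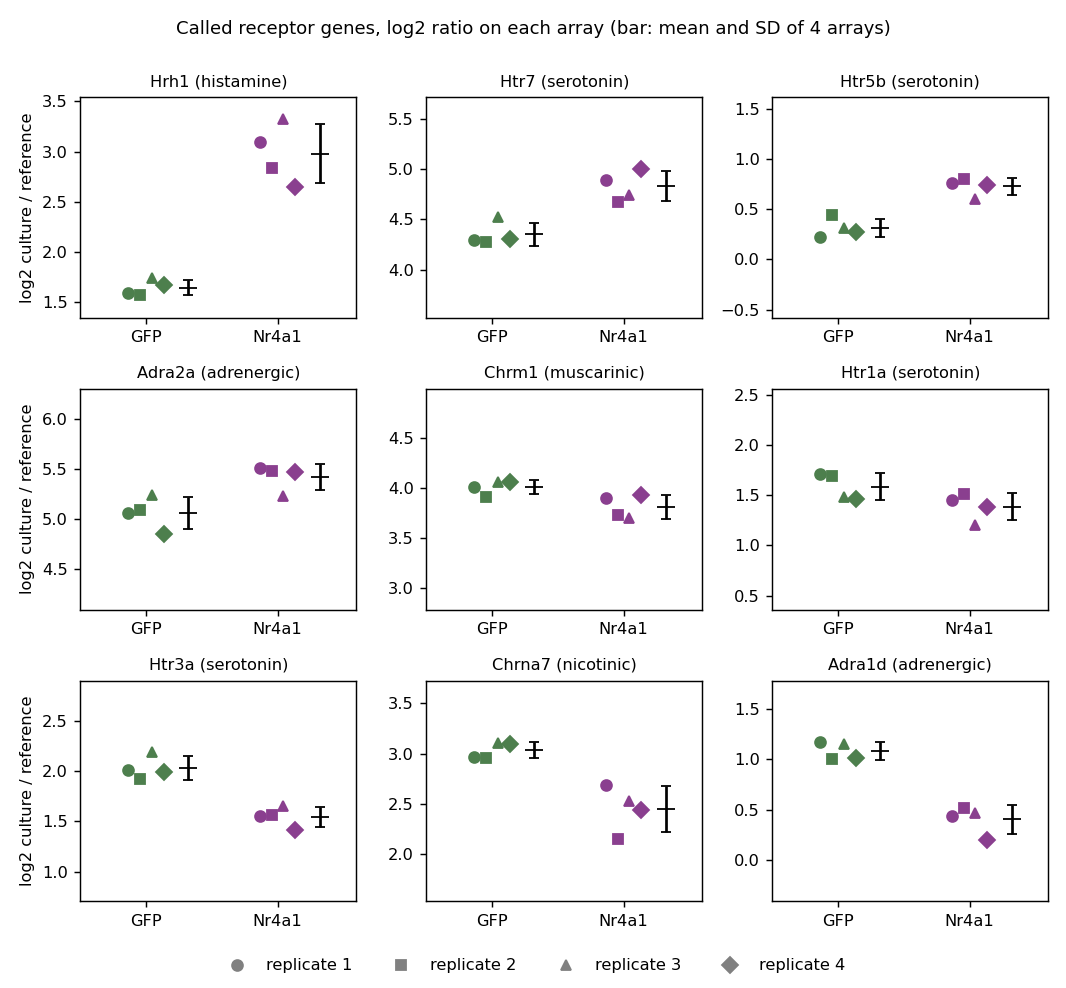
Log2 ratio of culture over reference (y axis) on each array for the 9 called receptor genes, GFP-labelled in green and Nr4a1-labelled in purple, symbols for replicates 1 to 4, bars for the mean and SD of 4 arrays, with axes of equal span and different origin. Hrh1, Htr7, Htr5b, Htr3a, Chrna7 and Adra1d show no overlap of the groups, while Adra2a, Chrm1 and Htr1a overlap.

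Among the serotonin receptors, Htr7 and Htr5b rose and Htr3a and Htr1a fell. Htr7, on chromosome 19, encodes a Gs-coupled receptor studied in hippocampal excitability and circadian timing. Htr7 read 4.30, 4.28, 4.53 and 4.31 in the GFP-labelled cultures and 4.90, 4.68, 4.75 and 5.01 in the Nr4a1-labelled ones. The groups did not overlap, and GFP-labelled replicate 3 stood above its 3 fellows. Htr7 differed by 0.48 ± 0.08 (SE; limma, adjusted p = 0.00221), a 1.39-fold rise present in 4 of 4 pairs.

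The Htr7 spot changed in both dyes. Its raw Cy5 signal was 2108, 2864, 2752 and 1720 on the GFP-labelled and 5515, 5439, 5700 and 3924.5 on the Nr4a1-labelled arrays, and its Cy3 signal was 79, 89, 90.5 and 67 against 136, 132, 131 and 121. The reference RNA is meant to be the same on all arrays, and a raw Cy3 difference above 0.5 (log2) occurred in 0.459% of tested features, while that of Htr7 was 0.68. In the Cy5 channel alone Htr7 differed by 0.97 (limma, adjusted p = 1.38e-04), where 28.6% of features were called. In Agilent's own processed ratio, which called 13.5% of features, Htr7 was called in the other direction at -0.34 (limma, adjusted p = 0.0295). With uneven-background spots kept in, it was -0.017. The source of the Cy3 difference and the cause of the change in sign were not tested.

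Htr5b, on chromosome 1, encodes a serotonin receptor that is functional in rodents and interrupted in humans. Htr5b read 0.23, 0.44, 0.31 and 0.28 on the GFP-labelled and 0.76, 0.81, 0.60 and 0.74 on the Nr4a1-labelled arrays. The 2 groups did not overlap, and its Cy5 signal was clear of background on none of the GFP-labelled arrays and on all 4 Nr4a1-labelled ones. The log2 ratio differed by 0.41 ± 0.06 (SE; limma, adjusted p = 0.00122), a description only, since the probe entered the test through the group in which it was high. For Cy5 alone, GFP-labelled values under the lowest signal still above background on their array were raised to that floor. The mean Cy5 signal of Htr5b was then 1.36-fold higher in the Nr4a1-labelled cultures. A probe not clear of background can lie above this floor, so the value is no strict lower bound, and it was not itself tested.

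Htr3a, on chromosome 9, encodes the channel subunit that marks a class of cortical and hippocampal interneurons. Htr3a read 2.02, 1.92, 2.19 and 1.99 on the GFP-labelled arrays and 1.55, 1.56, 1.65 and 1.41 on the Nr4a1-labelled arrays. Every Nr4a1-labelled array lay below every GFP-labelled one, and the difference was -0.49 ± 0.06 (SE; limma, adjusted p = 3.88e-04), a 1.4-fold fall seen in 4 of 4 pairs. Of the 8 tested markers of interneurons from the caudal ganglionic eminence, the origin of most Htr3a cells, 2 were higher and 2 lower, and their mean log2 ratio was 2.09 to 2.27 on the GFP-labelled and 2.22 to 2.26 on the Nr4a1-labelled arrays.

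Htr1a, on chromosome 13, encodes the Gi-coupled receptor that hyperpolarises hippocampal pyramidal cells and acts as an autoreceptor on serotonin neurons. Htr1a read 1.72, 1.69, 1.48 and 1.46 on the GFP-labelled and 1.45, 1.51, 1.2 and 1.38 on the Nr4a1-labelled arrays. The groups overlapped, and within each of the 4 pairs the Nr4a1-labelled array was lower. The Htr1a difference was -0.20 ± 0.06 (SE; limma, adjusted p = 0.0372). Without the pair as a block the adjusted p was 0.113.

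Of the tested serotonin receptors that did not pass, Htr2c had the largest difference. This Gq-coupled receptor, abundant in choroid plexus and present in hippocampal neurons, read 5.73, 5.90, 6.30 and 5.95 against 6.32, 5.91, 6.09 and 6.28. The groups overlapped broadly, and the difference of 0.18 ± 0.11 (SE; limma, adjusted p = 0.272) was positive in 3 of 4 pairs. It was 0.046 without replicate 1 and 0.31 without replicate 3, with no call in either. The choroid plexus markers Kcnj13 and Clic6 were never above background, and of the 6 tested choroid plexus markers 1 was lower. Htr2a, the Gq-coupled target of hallucinogens, differed by 0.039 and was detected on 1 GFP-labelled and 3 Nr4a1-labelled arrays. Htr4, a Gs-coupled receptor, was lower in 4 of 4 pairs, with a difference of -0.16 (limma, adjusted p = 0.101). In the Cy5 channel alone Htr4 was called lower, at -0.25 (limma, adjusted p = 0.0290).

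Among the adrenergic receptors, Adra2a rose and Adra1d fell. Adra2a, on chromosome 19, encodes the Gi-coupled receptor on which clonidine and guanfacine act. Adra2a read 5.06, 5.10, 5.24 and 4.85 on the GFP-labelled arrays and 5.51, 5.48, 5.23 and 5.47 on the Nr4a1-labelled arrays. Nr4a1-labelled replicates 1, 2 and 4 lay above all GFP-labelled values, and replicate 3 lay just under the highest of them. Adra2a differed by 0.36 ± 0.09 (SE; limma, adjusted p = 0.0180), with a positive difference in 3 of 4 pairs and -0.0054 in the other.

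The Adra2a call was lost without replicate 1 or without replicate 4, where the differences lay between 0.27 and 0.48 over all 4 omissions. Its raw Cy3 signal, like that of Htr7, was higher on the Nr4a1-labelled arrays, at 99, 113, 89 and 90 against 85, 79.5, 83 and 76, a log2 difference of 0.27. In the Cy5 channel alone Adra2a differed by 0.58, and in Agilent's own ratio by -0.033.

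Adra1d, on chromosome 2, encodes a Gq-coupled receptor and had the largest fall of the group. Adra1d read 1.18, 1.00, 1.15 and 1.01 on the GFP-labelled arrays and 0.43, 0.52, 0.47 and 0.20 on the Nr4a1-labelled arrays. All 4 Nr4a1-labelled values lay below all GFP-labelled values, with replicate 4 the lowest. The difference of -0.68 ± 0.07 (SE; limma, adjusted p = 8.64e-05) was a 1.60-fold fall present in 4 of 4 pairs. A second Adra1d probe, detected on 4 GFP-labelled and 2 Nr4a1-labelled arrays, differed by -0.42. Raw Cy5 was 192.5, 265, 213.5 and 158 against 113, 144.5, 133.5 and 82, while Cy3 stayed between 75 and 98.

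**Figure D3:**
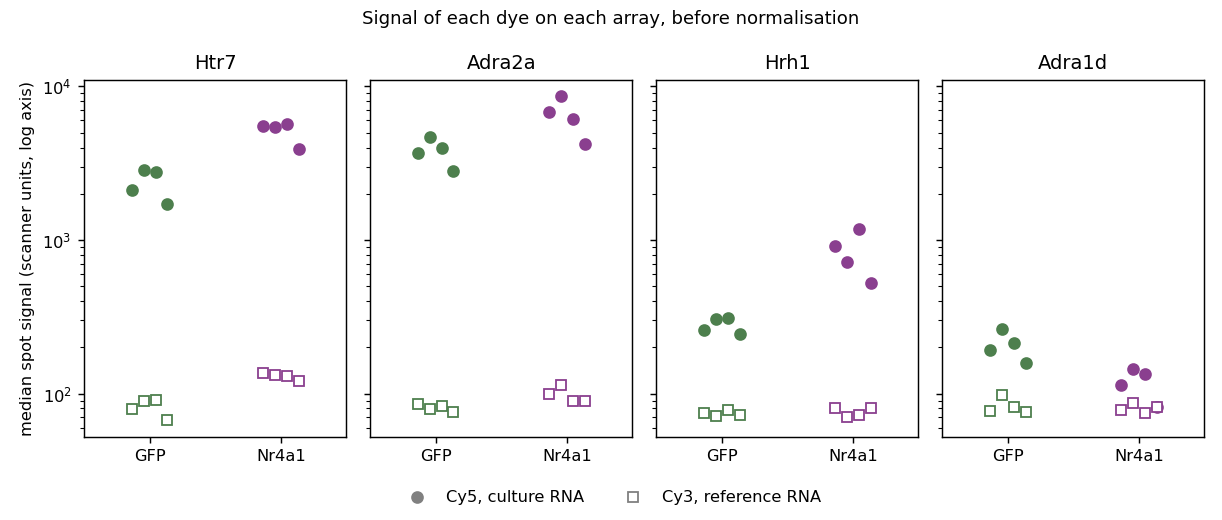
Median spot signal in scanner units (y axis, log scale) of the culture dye Cy5 (filled circles) and the reference dye Cy3 (open squares) on each array for Htr7, Adra2a, Hrh1 and Adra1d. For Htr7 the reference signal lies between 67 and 90.5 on the GFP-labelled arrays and between 121 and 136 on the Nr4a1-labelled arrays, whereas for Hrh1 it stays between 70.5 and 80 throughout.

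Adrb1, a Gs-coupled receptor for noradrenaline, had the smallest difference of the group. It read 3.84, 3.94, 3.94 and 3.70 against 3.84, 3.78, 3.87 and 3.94, so the groups covered the same range, and the interval of the difference ran from -0.16 to 0.16. Adra1b, another Gq-coupled receptor, differed by 0.059 on the brighter probe and by 0.27 on its other probe. That other probe was detected on 4 of 4 arrays in each group and was higher in 4 of 4 pairs, with overlapping groups. Adra1b was called higher in the authors' deposited table, which lacks the brighter probe, and in the Cy5 channel alone. Adra2c, Gi-coupled, differed by -0.11 with lower values in 4 of 4 pairs (limma, adjusted p = 0.231).

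Of the muscarinic receptors only Chrm1 passed the test among the 3 tested. Chrm1, on chromosome 19, encodes the Gq-coupled receptor that predominates on hippocampal pyramidal cells. Chrm1 read 4.01, 3.91, 4.06 and 4.06 on the GFP-labelled and 3.90, 3.72, 3.70 and 3.93 on the Nr4a1-labelled arrays. The groups overlapped by 1 array, since Nr4a1-labelled replicate 4 lay above GFP-labelled replicate 2. The difference of -0.20 ± 0.06 (SE; limma, adjusted p = 0.0474) was negative in 4 of 4 pairs. A second Chrm1 probe differed by -0.24 with overlapping groups. Its pair differences were -0.070, -0.77, -0.023 and -0.085, the largest in the pair of Nr4a1-labelled replicate 2. On that array its Cy3 signal was 126, beside 48 to 56.5 on the others. Without the pair as a block the adjusted p of Chrm1 was 0.0672.

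Chrm4, Gi-coupled, read 0.09, 0.29, 0.19 and 0.24 against 0.11, 0.20, 0.20 and 0.27, with full overlap and a difference of -0.0079. Chrm3, Gq-coupled, differed by 0.061, with an interval from -0.082 to 0.20.

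Among the nicotinic subunits Chrna7 fell. Chrna7, on chromosome 7, encodes the subunit of the homomeric, calcium-permeable receptor that binds alpha-bungarotoxin, and its probe is printed 10 times on each array. Chrna7 read 2.97, 2.96, 3.11 and 3.09 on the GFP-labelled arrays and 2.68, 2.14, 2.53 and 2.44 on the Nr4a1-labelled arrays. The groups did not overlap, and Nr4a1-labelled replicate 2 was the lowest. The difference was -0.58 ± 0.08 (SE; limma, adjusted p = 7.83e-04), a 1.50-fold fall in 4 of 4 pairs. The SD over the 8 to 10 spots used on an array was 0.09 to 0.25, so each array's mean rests on more measurements than that of the other genes.

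Chrna5, an accessory subunit, read 0.98, 1.17, 0.89 and 1.17 against 1.17, 1.24, 1.22 and 1.24. The lowest Nr4a1-labelled value was level with the highest GFP-labelled ones, so the groups met at their edges, and the difference of 0.16 ± 0.07 (SE) had an adjusted p of 0.100 in limma. Chrna5 was called higher in the Cy5 channel alone, at 0.33 (limma, adjusted p = 0.00474), and with no background correction. Of the neighbouring genes of the same cluster on chromosome 9, Chrnb4 differed by -0.055 with no call, and Chrna3, never above background, was not tested. Chrna4 and Chrnb2, which together form the main high-affinity nicotine receptor of the brain, differed by -0.061 and 0.010, with intervals from -0.25 to 0.13 and from -0.17 to 0.19.

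The 3 tested dopamine receptors lay close to background. Drd1, Gs-coupled, differed by -0.11, Drd2, Gi-coupled, by -0.055 and Drd3, also Gi-coupled, by 0.10, and each was detected on 5 or 6 of the 8 arrays. Their intervals ran from -0.27 to 0.06 for Drd1, from -0.20 to 0.09 for Drd2 and from -0.07 to 0.28 for Drd3. GFP-labelled replicate 4 of Drd1 read 0.81, above the 0.53 to 0.57 of its fellows, and the Nr4a1-labelled arrays read 0.43 to 0.57.

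The 6 matched genes that were not tested were dim. Adra1a, Chrm2 and Chrna3 were above background on 0 of 8 arrays, Htr1b and Htr5a on 1 each, and Drd5 on 3. A level under background is a bound set by the probe and the scanner, and says nothing of the presence of the transcript.

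The calls were recomputed under 18 other settings. Hrh1, Htr3a and Htr7 kept a call in 16 of 18, Adra1d in 17, Htr5b in 15 of the 17 in which it was tested, Chrna7 in 15 and Adra2a in 12, and 1 of the calls of Htr7 was in the opposite direction. Htr1a kept a call in 5 and Chrm1 in 4. When slide entered as a random block together with the pair, 0 of the 25 genes and 12 of all features were called, or 0.0568%, with 722 features at an unadjusted p under 0.05. The Hrh1 difference was then 1.24 (limma, adjusted p = 0.520) and the estimated correlation within slides was 0.86. With the slide as a random block and no pair, that correlation was -0.023 and 7 of the 9 genes were called. Since no slide held both groups, neither fit can separate slide from group. When spots with an uneven local background stayed in the background correction, Adra1d alone was called, beside 1.07% of all features. Nr4a1-labelled replicate 2 held 37 such spots, with a local background up to 8509 in Cy5 and 33931 in Cy3. The other arrays held 10 or fewer, with a local background up to 89 in Cy5 and 63.5 in Cy3. The part of Nr4a1-labelled replicate 2 in the lost calls was not tested.

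**Figure D4:**
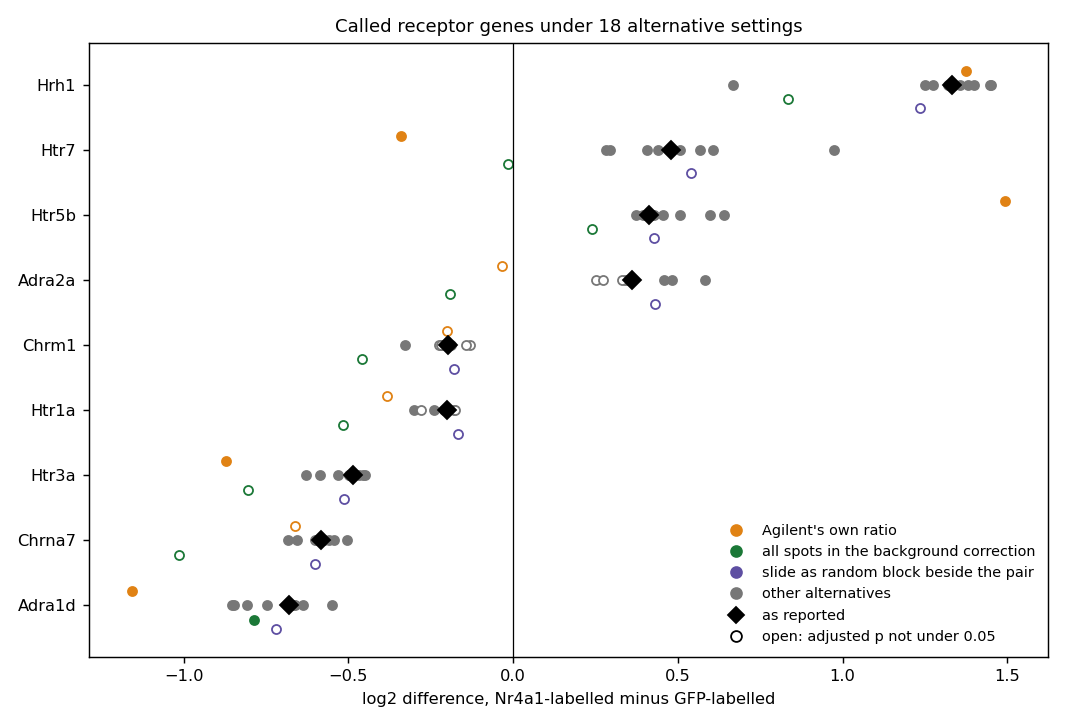
Log2 difference (x axis, Nr4a1-labelled minus GFP-labelled) of the 9 called receptor genes as reported (black diamonds) and under 18 other settings (points), filled where the adjusted p was under 0.05 and open where it was not. Hrh1 stays between 0.67 and 1.45, and Htr7 spans -0.34 to 0.97.

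Related receptors, G proteins, effectors and enzymes were counted to place these receptors in their pathway. Of 12 tested receptors of the same families outside the group, 1 rose and 1 fell. Htr1f, a Gi-coupled serotonin receptor, read 0.21, 0.17, 0.50 and 0.29 on the GFP-labelled and 1.64, 2.08, 1.43 and 1.61 on the Nr4a1-labelled arrays. These groups were far apart, with a difference of 1.4 ± 0.12 (SE; limma, adjusted p = 4.19e-05) and detection on 2 of 4 and 4 of 4 arrays. Drd4, a Gi-coupled dopamine receptor, differed by -0.22 (limma, adjusted p = 0.0487), with lower values in 3 of 4 pairs. The Drd4 call was kept in 5 of 18 other settings and was lost with no replicate block (limma, adjusted p = 0.231) and without replicate 1, 2 or 4.

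Among 19 tested G protein subunits 2 rose and 3 fell. Gnb4, a beta subunit, read -0.15, -0.36, -0.52 and -0.17 against 0.95, 0.73, 0.79 and 0.70, a 2.14-fold rise with no overlap. Gnb2, another beta subunit, fell by 0.31, Gnaz, a Gi-family alpha subunit, by 0.42, and Gna11, a Gq-family alpha subunit, by 0.26. Of 29 tested effectors 3 rose and 7 fell. Adenylyl cyclases went both ways, Adcy6 at 0.73 and Adcy9 at -0.44. Prkacb, a catalytic subunit of protein kinase A, rose 1.43-fold, and Ppp1r1b, the phosphatase inhibitor DARPP-32, fell 1.97-fold from 3.31, 3.20, 3.26 and 3.07 to 2.32, 1.96, 2.49 and 2.17.

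Of the 22 tested genes of receptor desensitisation and G protein shut-off, 1 rose and 5 fell. Rgs14, which speeds the shut-off of Gi signals and marks pyramidal cells of hippocampal area CA2, fell 1.96-fold with no overlap, from 1.47 to 1.56 down to 0.40 to 0.74. The receptor kinase Grk3 fell by 0.54 and the arrestin Arrb1 by 0.38, while Rgs12 rose by 0.37. Of the 14 receptor partners tested, 0 rose and 4 fell: Lypd6b and Lynx1, members of the Ly6 family that bind nicotinic receptors, at -0.68 and -0.62, Ly6e, of the same family, at -0.36, and S100a10, a partner of several serotonin receptors, at -0.31.

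Of 22 tested genes of transmitter synthesis, transport and breakdown, 3 rose and 5 fell. Th, the rate-limiting enzyme of catecholamine synthesis, read 0.41, 0.49, 0.46 and 0.37 on the GFP-labelled and 1.57, 1.56, 1.42 and 1.52 on the Nr4a1-labelled arrays, a 2.12-fold rise. The 4 values of each group lay close together and far from those of the other. The dopamine transporter Slc6a3 and the noradrenaline-making enzyme Dbh fell by 0.86 and 0.51, so the catecholamine genes did not move together. Bche, a cholinesterase, rose 2.02-fold. Over all 6 lists 118 genes were tested, of which 10 or 8.47% rose and 25 or 21.2% fell, beside 12.8% and 11.5% of all features.

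**Figure D5:**
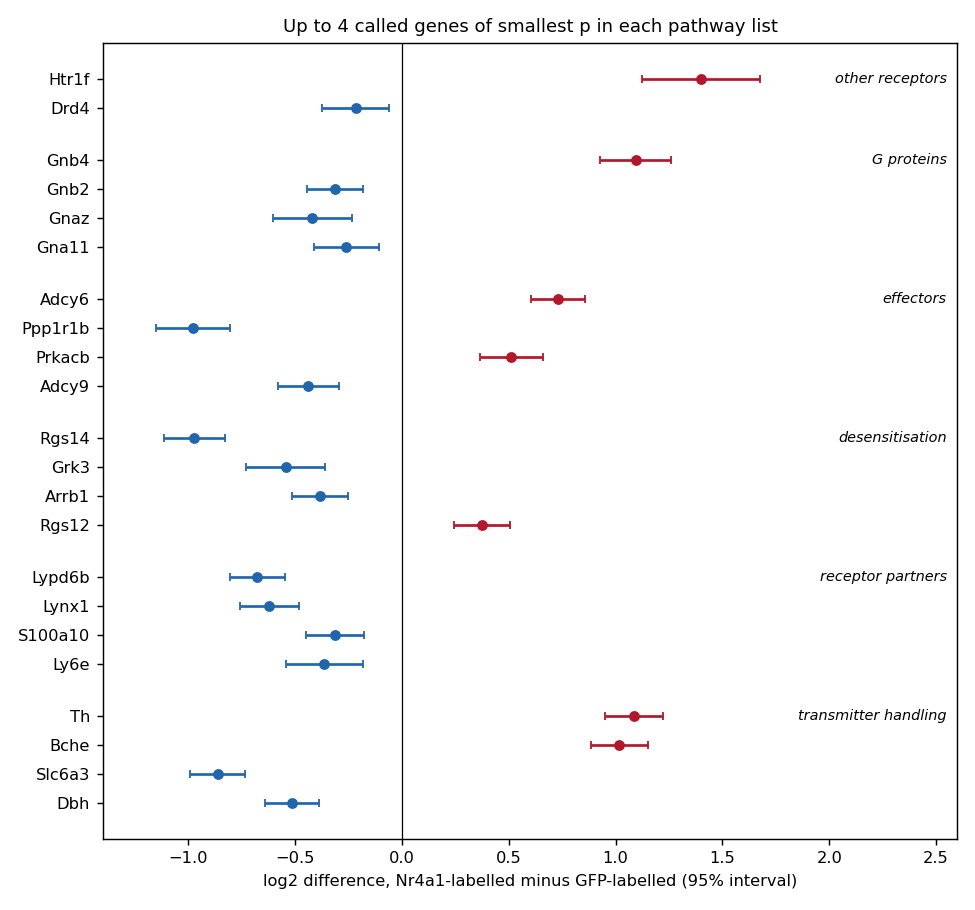
Log2 difference (x axis, Nr4a1-labelled minus GFP-labelled, with 95% interval) of up to 4 called genes of smallest p in each of the 6 pathway lists, red for higher and blue for lower. Htr1f at 1.4 and Gnb4 and Th at 1.09 lie farthest to the right, and Ppp1r1b at -0.98 and Rgs14 at -0.97 farthest to the left.

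Markers of other cells moved in some lists. In the oligodendrocyte lineage 5 of 10 tested markers rose and 2 fell, and their mean log2 ratio was 0.90 to 1.06 on the GFP-labelled and 1.18 to 1.23 on the Nr4a1-labelled arrays. Of 10 astrocyte markers 3 were higher, with means of 3.48 to 3.60 and 3.59 to 3.75. Of 8 tested glutamatergic markers 1 was higher and 2 lower, and of 11 interneuron markers 2 were higher and 1 lower. Of 6 tested microglial markers 1 was lower, with means of -1.51 to -1.47 on the GFP-labelled and -1.71 to -1.59 on the Nr4a1-labelled arrays. Of 10 vascular or fibroblast markers 2 were lower, with means of -2.21 to -2.17 and -2.36 to -2.31. P2ry12, C1qc and Cdh5 were never above background. Their part in the receptor differences was not tested.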

How the data were processed

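The 8 scanner files hold spot intensities, which the authors read from 2-colour arrays of 44397 spots with Agilent's Feature Extraction (version 11.0.1.1 per the headers of the files). The same files carry log10 ratios of Cy5 over Cy3 after Agilent's background subtraction and dye normalisation, per the file headers, which served as an alternative. A deposited table of 24275 probes holds the authors' normalised log2 ratios, with limma named in the submitters' processing notes and the background method not given in the sources used here; it also served as an alternative and lacked 9 of the 40 receptor probes.

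From the median signals, background was corrected by normexp (offset 50) after spots with a non-uniform local background were left out, ratios were loess-normalised within arrays with control spots at weight 0, outlier spots were dropped and spots of a probe averaged. Normexp raises dim signals, so ratios of dim probes are compressed. A probe was tested when its Cy5 signal cleared background on 4 of the 8 arrays or more and each group kept 3 values, and the brightest probe stood for a gene. Probes were named through RefSeq's table for GRCm38.p6, which named 26581 of 39429 probes. In limma 3.58.1 (R 4.3.3) the pair was a fixed block, and Benjamini-Hochberg adjustment ran over all 21116 features at 0.05. The pairing comes from the pair tag in the labels. Deviations from group means correlated within pairs by -0.10, 0.28, -0.017 and 0.42, and between arrays of different pairs by -0.36 to 0.34. The highest value lay within a pair, but the ranges overlap, so these data give the block no clear support of their own. No spot was saturated, and the number of arrays limits the precision. The fit was also run on data simulated with a pair effect, independent noise and no slide effect, a check that says nothing of the slides or the pairing.

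The receptor genes and all gene lists were chosen with earlier results of these data known. Array by array values are given for every called receptor gene and for the 2 largest and 2 smallest uncalled differences, and up to 4 called genes of smallest p are named per pathway list.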

Additional observations from a re-analysis of the deposited data

Results flagged for a closer look

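In 4 of the 50 groups of 4 arrays checked over the 25 tested receptor genes, 1 array stood apart from its 3 fellows by more of the group's range than Dixon's critical value at 95% allows; chance gives about 1 in 20. GFP-labelled replicate 3 read 4.53 for Htr7, above the 4.28 to 4.31 of the others. GFP-labelled replicate 4, of the second batch, read 0.81 for Drd1, above 0.53 to 0.57, and -0.43 for Adra1b, below -0.33 to -0.32. Nr4a1-labelled replicate 3 read 5.23 for Adra2a, below 5.47 to 5.51.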

How the results depend on the processing

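Over the 18 alternatives, 4 of 161 values of the called receptor genes and 31 of 284 values of the uncalled ones had the other sign. Of the former 116 were called, a count that includes the opposite call of Htr7 with Agilent's ratio. Of the latter 5 became called, for Adra1b, Chrna5 and Htr4. The counts of receptor genes called higher and lower, 4 and 5 as reported, were 2 and 3 with the processed ratio of Agilent, 0 and 1 when spots of uneven background stayed in (all spots) and 0 and 0 with slide (random) plus pair blocks, and 3 were lower with median centring, with no filter on dim probes, with no replicate block, with offset 16 and with the slide block but no pair block. Without the replicate block Htr1a and Chrm1 lost their calls and the other 7 genes kept theirs. The omission of 1 replicate gave 3 to 4 higher and 3 to 4 lower. Counts over all features, 2713 and 2433, were 1510 and 1350 with Agilent's ratio, 128 and 97 with all spots and 8 and 4 with the slide beside the pair, 1262 were lower with median centring, which moved the median of all features to 0.059, and omissions gave 1768 to 2603 and 1619 to 1991, lowest without replicate 1 for both. The median difference of the receptor genes was -0.17 with Agilent's ratio, -0.34 with all spots, 0.045 with median centring and -0.037 with no background correction. In the pathway lists, 10 higher and 25 lower, the counts were 16 higher in Cy5 alone, 2 and 2 with all spots, 0 and 0 with the slide beside the pair, 16 and 41 in the authors' deposited table, 14 lower with Agilent's ratio and 15 lower with median centring, and omissions gave 9 to 10 and 19 to 26.

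With Agilent's ratio the sign turned for Adra2a (-0.033), Adrb1 (0.22), Chrm3 (-0.15), Hrh3 (-0.19) and Htr7 (-0.34). With all spots it turned for Adra2a (-0.19), Chrm3 (-0.35), Chrna5 (-0.093), Chrnb2 (-0.53), Hrh3 (-0.40), Htr2a (-0.029), Htr2c (-0.62) and Htr7 (-0.017). In Cy5 alone it turned for Adrb1 (0.039), Chrm4 (0.14), Chrnb2 (-0.14) and Drd3 (-0.020). Adrb1 was also 0.054 with median centring, 0.078 with no background correction and 0.066 with the slide beside the pair, and Chrm4 was 0.019 with median centring and 0.0029 with the slide beside the pair. With no background correction Chrnb2 was -0.0087 and Hrh3 -0.050, and with offset 16 Hrh3 was -0.022. With 1 replicate left out, uncalled genes that changed sign covered -0.080 to 0.055 for Adrb1, -0.021 to 0.018 for Chrm4, -0.17 to 0.0066 for Chrna4, -0.052 to 0.11 for Chrnb2 and -0.0028 to 0.049 for Hrh3. The cause was not tested. Signal near background limits Htr5b, Htr2a and the dopamine receptors, and 10 of the 25 tested genes had no array with Cy3 clear of background, so their ratios rest on a dim reference.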
